A study of Mus musculus with 12 samples.

Results

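Gene expression after FoxD3 was compared with the empty vector in B16-F10 cells, an established pigmented mouse melanoma line, on 8 of the 12 microarrays of the series. The members are the 4 arrays titled FoxD3-transfected and the 4 titled control transfected. Both groups were grown with 10% serum and carry the plasmid pMES, in which a chick beta-actin promoter drives a transcript that also encodes EGFP. In the FoxD3 group the plasmid makes chicken FoxD3 as well, and in the control group it makes EGFP alone. EGFP-positive cells were collected by flow cytometry 24 h after transfection, and their total RNA was amplified, labelled with biotin and hybridized to 1-colour arrays. The other 4 arrays, of cells given FoxD3-VP16, entered the normalization, the choice of probe sets, the filter on dim genes and the fit, where they share the estimate of the spread and of the replicate numbers; no value of theirs is compared. As a model this is 1 cell line at 1 time, a sorted pool of cells with an introduced chicken protein, and no label gives its amount. No label states whether arrays of a group came from separate cultures. The p-values therefore cover the spread among these samples alone, and that spread may be technical.

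The forkhead protein FoxD3 regulates transcription in the young neural crest, an embryonic population that forms melanocytes, glia, peripheral neurons and much of the facial skeleton and cartilage. It binds DNA through a winged-helix domain and is known mainly as a repressor that recruits Groucho corepressors, although it can also activate genes. In embryos it is switched off as crest cells enter the pigment lineage, and it is known to hold down Mitf, the main transcription factor of melanocytes. The comparison asks which genes respond when it is put back into pigmented cells.

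A level is given throughout as log2(intensity + 16) after quantile normalization, and a change as the log2 difference of FoxD3 minus empty vector. Array values are listed in the order of the replicate numbers 1 to 4. The Foxd3 probe set of the array reads the mouse gene, stood at 4.47 to 5.01 on the empty-vector arrays and at 4.60 to 5.26 on the FoxD3 arrays, was too dim to be tested, and does not check the labels because the introduced sequence is chicken. All 10 melanocyte markers lay above the brightness limit of 5.98 in both groups, where 1 was called higher and 3 lower. No marker of muscle or erythroid cells lay above it in either group, and 1 of 5 keratinocyte markers did so with FoxD3. Of other cell types, 2 of 7 leukocyte markers did so with either vector, 2 of 5 endothelial markers with the empty vector and 1 with FoxD3, and 3 and 4 of 8 fibroblast markers. The arrays numbered 1 stood apart: their hybridization controls read 14.50 and 14.31 against 11.53 to 12.83 on the others, their 18S rRNA probe sets 12.86 and 13.07 against 9.31 to 10.1, and their Gapdh 3' minus 5' difference, a sign of RNA quality, was 0.66 and 0.56 against -0.25 to 0.04. Each vector has 1 array of every number. The hybridization controls read slightly lower with FoxD3 in 4 of 4 pairs (differences of -0.20 to -0.06), and the part of this in the results was not tested. In these 8 arrays the replicate number accounted for 60% of the variance over genes and the vector for 25.3%, so the number was a term of the model. Genes "called" passed an adjusted p of 0.05 in limma (Benjamini-Hochberg over the 10916 genes tested), and "both fits" means with and without that term.

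Many of the genes tested differed between the FoxD3 and the empty-vector arrays, in a number that depended on the model. The rises reached further than the falls. With the number in the model, 2297 genes were called (21.0% of those tested), of which 1292 rose (11.8%) and 1005 fell (9.21%). Without it, 438 were called (4.01%), 316 higher (2.89%) and 122 lower (1.12%), and all 438 were among the 2297. The median called rise was 0.66 and the median called fall was -0.53. Rises of at least 1 on the log2 scale numbered 349 (3.20%) and falls of that size 85 (0.779%). At a change of at least 2 there were 59 rises (0.540%) and 0 falls (0.0%), the largest fall being -1.86. Of the 349 rises, 67 started below the brightness limit with the empty vector, and 5 of the 85 falls ended below it with FoxD3. Over all genes tested the median change was -0.00.

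The 4 FoxD3 arrays all lay above the 4 empty-vector arrays for 739 genes (6.77%) and all below them for 515 (4.72%). Of the called genes, 96.9% had 1 sign in 4 of 4 same-numbered pairs, which follows in part from calling them with the number in the model. The pair numbered 2 moved least, with a median difference of 0.49 over the called rises and -0.40 over the called falls, against 0.69 to 0.72 and -0.64 to -0.54 in the other 3 pairs. The differences of the pairs numbered 3 and 4 correlated by 0.75 over genes, and those of other pairs by 0.46 to 0.52. The 4 pairs may therefore count for less than 4 separate ones, and leaving out 1 array never removes both of these numbers. Calls were spread over the whole range of brightness. Of the dimmest 20% of the genes tested 8.47% rose and 3.07% fell, and of the brightest 20%, 12% rose and 11.6% fell. The typical size of a difference shrank with brightness, from a median absolute change of 0.35 in the dimmest of these classes to 0.14 in the brightest.

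**Figure D1:**
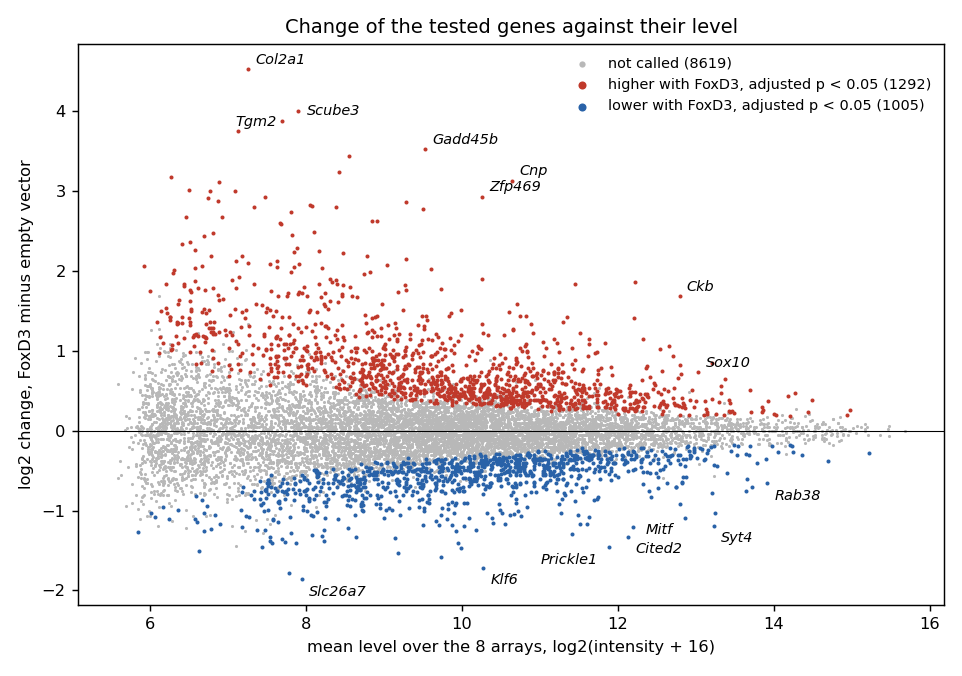
Each point is 1 of the 10916 genes tested, with its mean level over the 8 arrays, log2(intensity + 16), on the horizontal axis and its log2 change, FoxD3 minus empty vector, on the vertical axis. The 1292 genes called higher reach 4.52 (Col2a1), the 1005 called lower stop at -1.86 (Slc26a7), and the 8619 not called lie around 0.

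The 25 largest rises among genes called in both fits include several genes of the extracellular matrix. The choice also required 4 of 4 pairs with the same sign and groups without overlap, so neither is a result for these genes. Col2a1, the chain of the main cartilage collagen, stood at 4.20, 4.74, 5.43 and 5.63 on the empty-vector arrays and at 8.77, 8.57, 10.23 and 10.51 on the FoxD3 arrays. The lowest FoxD3 array was above the highest empty-vector array, and the change was 4.52 (SE 0.36, limma adjusted p = 4.31e-06). Tgm2, a transglutaminase that crosslinks matrix proteins, was at 6.12, 5.66, 5.14 and 6.11 and then at 9.18, 9.99, 9.62 and 9.76. Its groups did not overlap, the change was 3.88 (SE 0.25, adjusted p = 1.36e-06), and the other probe sets of the gene changed by 4.98, 3.94, 3.00, 1.31 and 0.07. Sned1, a matrix protein, went from 4.69 ± 0.47 (SD, n = 4) to 7.86 ± 0.35, and Col11a2, a collagen of cartilage fibrils, from 5.94 ± 0.92 to 8.74 ± 0.26. Tinagl1, a secreted matrix-associated protein, was well expressed before FoxD3, at 7.80, 7.08, 8.62 and 8.98, and stood at 10.43, 10.22, 11.48 and 11.42 with it. Its empty-vector arrays numbered 3 and 4 were the high ones, and the same numbers were high with FoxD3.

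Secreted signals and receptors formed the next set. Pgf, a ligand of the VEGF family, was at 6.01, 7.29, 6.31 and 7.60 with the empty vector and at 9.64, 10.12, 10.55 and 9.84 with FoxD3, a 9.42-fold rise (3.24, SE 0.26, adjusted p = 4.33e-06). The growth factor gene Pdgfb stood at 6.55, 6.17, 4.16 and 5.47 and then at 8.71, 7.51, 8.35 and 8.50; its array numbered 2 was the lowest with FoxD3, and its pair differed least. Scube3, secreted and built of EGF-like repeats, had its highest FoxD3 value, 11.52, on the array numbered 1 and 9.03 to 9.55 on the others, against 4.83 to 6.84 with the empty vector. Epha2, a receptor for ephrins of the A class, went from 6.43, 5.98, 7.22 and 6.91 to 10.06, 8.32, 9.69 and 9.77 (2.82, SE 0.24, adjusted p = 6.30e-06). Ngfr, the low-affinity neurotrophin receptor of neural crest and glia, rose by 3.00 (SE 0.43), from 4.38 to 6.42 across the empty-vector arrays to 7.80 to 8.73 with FoxD3, by a probe set that was dim without FoxD3. The other, dimmer probe sets of Ngfr changed by 0.78 and -0.22. Celsr3, an atypical cadherin of planar polarity, rose by 3.00 (SE 0.29) and Mfng, a glycosyltransferase that modifies Notch receptors, by 2.91 (SE 0.42).

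Inside the cell the same 25 include carriers, enzymes and regulators. Fabp3, which carries fatty acids in the cytosol, stood at 5.01, 6.47, 7.99 and 7.85 with the empty vector and at 9.90, 9.83, 10.69 and 10.65 with FoxD3. The pairs numbered 1 and 2 started low and so differed most, and the other, dimmer probe set of the gene changed by 0.59. Crabp2, which delivers retinoic acid to its nuclear receptors, rose from 6.67 ± 0.46 to 9.48 ± 0.10 (SD, n = 4). Padi3, which converts arginine to citrulline in proteins, rose by 3.75 (SE 0.34) and Slc38a3, a glutamine transporter, by 3.11 (SE 0.33), both from below the limit. Cnp, an abundant enzyme of myelin, went from 8.64 to 9.76 before to 11.99 to 12.44 after; it was bright in both groups, and its pairs differed by 2.68 to 3.36 (3.13, SE 0.13, adjusted p = 1.68e-08). Gadd45b, a stress-induced regulator, went from 8.15, 6.46, 8.13 and 8.33 to 11.36, 10.84, 11.48 and 11.47 (3.52, SE 0.27). Zfp469, a zinc finger gene tied to the matrix of the cornea, had the lowest adjusted p of the 25, 1.27e-08, with 8.42 to 9.0 before and 11.32 to 11.90 after. The remaining members were Kdelr3, a retrieval receptor of the endoplasmic reticulum (2.86), the small GTPase Rem2 (2.93), the corepressor Hr (2.88), the F-box protein Fbxl16 (2.80), the scaffold Card10 (2.74) and Misp3 (3.01).

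Of these 25 rises, 13 lay below the brightness limit with the empty vector, Col2a1, Tgm2, Scube3, Padi3, Sned1, Slc38a3, Ngfr, Celsr3, Mfng, Misp3, Hr, Pdgfb and Col11a2, so the size of their change depends on the pseudocount. All 25 stayed called in each of the 8 fits that left out 1 array (highest limma adjusted p = 0.00369), which follows in part from their choice. A further probe set above the limit existed for 7 of them and moved the same way for 6. The exception was Hr, whose other probe set changed by -0.25.

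**Figure D2:**
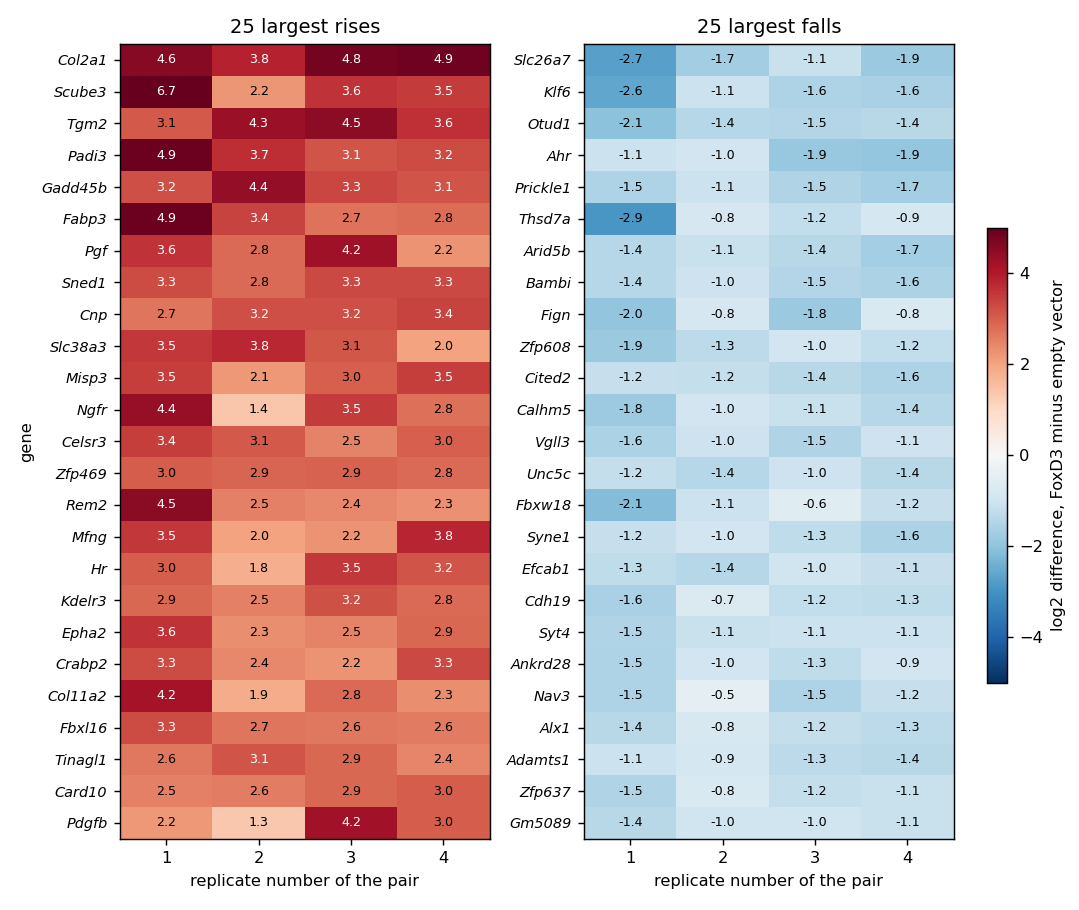
Each cell gives the log2 difference, FoxD3 minus empty vector, in the pair of arrays with that replicate number, for the 25 largest rises (left) and the 25 largest falls (right) among genes called in both fits. The rises are positive and the falls negative in 4 of 4 pairs for every gene shown, the choice of genes having required it.

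The 25 largest falls include several regulators of transcription. They were chosen by the same rule, so their groups could not overlap, and their steady calls follow in part from the choice. Klf6, a Kruppel-like zinc finger factor, stood at 11.26, 10.47, 11.49 and 11.32 with the empty vector and at 8.65, 9.39, 9.93 and 9.68 with FoxD3, a 3.30-fold fall (-1.72, SE 0.21, adjusted p = 0.000132). The pair numbered 1 differed most, and 4 other probe sets of the gene changed by -1.74 to -0.96. Ahr, the ligand-activated receptor for dioxin-like compounds, went from 10.48, 9.75, 11.33 and 11.31 to 9.39, 8.79, 9.44 and 9.37. The pairs numbered 3 and 4 started higher and fell more (-1.47, SE 0.23, adjusted p = 0.000680). Cited2, which binds the coactivators CBP and p300, went from 13.04, 12.43, 12.78 and 12.89 to 11.88, 11.24, 11.38 and 11.33, and its pairs differed by similar amounts (-1.33, SE 0.08, adjusted p = 5.92e-07). Arid5b, a chromatin-binding regulator, fell from 10.65 ± 0.18 to 9.24 ± 0.13 (SD, n = 4), Vgll3, a cofactor of TEAD factors, from 12.06 ± 0.11 to 10.77 ± 0.22, and Alx1, a homeobox factor of the facial crest, from 11.14 ± 0.11 to 9.97 ± 0.18. The zinc finger genes Zfp608 (-1.34) and Zfp637 (-1.15) belong to the same set.

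Other falls were in cell surface, signalling and cytoskeletal genes. The largest of all was in Slc26a7, an anion transporter, from 8.76, 8.40, 9.16 and 9.20 to 6.05, 6.66, 8.03 and 7.33 (-1.86, SE 0.27, adjusted p = 0.000352). Its FoxD3 arrays were widely spread, and the one numbered 3 was the highest. Bambi, a decoy receptor that dampens TGF-beta signals, went from 8.79, 8.62, 9.08 and 9.22 to 7.35, 7.59, 7.61 and 7.64. Its arrays stayed close together within each group (-1.38, SE 0.16, adjusted p = 6.23e-05). Otud1, a deubiquitinase, fell by 1.58 on the log2 scale (SE 0.19), from 9.93 to 10.77 across the empty-vector arrays to 8.51 to 9.34 with FoxD3. Among surface proteins, Unc5c, a netrin receptor, changed by -1.26, Cdh19, a cadherin of the Schwann and melanocyte lineages, by -1.21 and Thsd7a by -1.46. Fign, a microtubule-severing ATPase (-1.36), Nav3, a microtubule-binding protein (-1.18), and Syne1, which ties the nucleus to the cytoskeleton (-1.24), act on the cell's scaffold. Prickle1, a planar polarity protein, fell from 12.62 ± 0.33 to 11.16 ± 0.10 by its brightest probe set; its dimmer probe sets changed by 0.50 and -0.41, and with the mean of all of them the call was lost (adjusted p = 0.206). The same setting ended the call of Efcab1 (-1.21; adjusted p = 0.197). The set also holds the metalloprotease Adamts1 (-1.17), the phosphatase subunit Ankrd28 (-1.18), Calhm5 (-1.32), Fbxw18 (-1.25) and Gm5089 (-1.12). None of the 25 lay below the brightness limit in either group, all 25 stayed called in each of the 8 fits that left out 1 array (highest adjusted p = 0.0297), and the 15 with another probe set above the limit moved the same way by it.

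**Figure D3:**
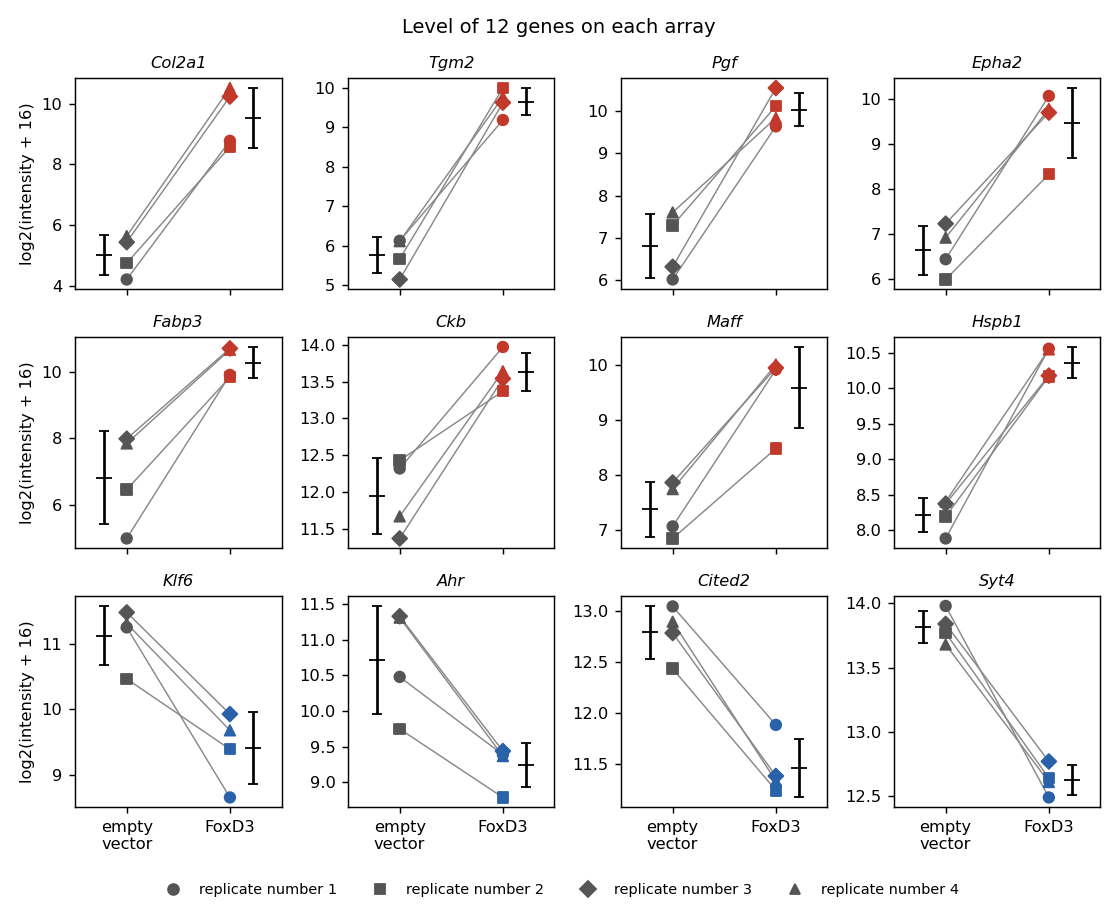
Level, log2(intensity + 16), of 12 genes on each array with the empty vector (grey) and with FoxD3 (red for rises, blue for falls); lines join arrays of the same replicate number, and bars beside the points give the mean ± SD of 4 arrays. In all 12 genes the groups do not overlap, and the 12 were chosen for display after their values were seen.

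Forkhead proteins bind DNA around the core TGTTTA, often as TGTTTAC, so the 250 bases before the start of each gene were searched for both on both strands (RefSeq, GRCm38.p6; the longer motif contains the shorter). TGTTTA was in 12% of the 32851 windows of the table, in 8.91% of the 8938 tested genes with a window, in 7.69% of the 1066 genes called higher with a window and in 10.8% of the 825 called lower. Among changes of at least 1 it was in 7.38% of 271 rises and 3.17% of 63 falls (2 genes). TGTTTAC was in 3.17%, 2.58%, 2.06% and 3.39% of the first 4 sets, and in 1.48% and 1.59% of the larger rises and falls. Of the 25 largest rises 17 have a window, 2 of them with TGTTTA and 0 with TGTTTAC. Of the 25 largest falls 16 have a window, and 1 of them holds TGTTTAC. A match is a description and not a bound site, and no match says only that these letters are not in the window. The 3 windows with a match are printed 5′ to 3′ with the match in capitals, because they belong to the genes that moved most. Otud1 (chr2:19657481-19657730, + strand) is the fall, with its match 28 to 22 bases before the start. Scube3 (chr17:28142059-28142308, + strand, 66 to 61 bases before the start) and Col11a2 (chr17:34038888-34039137, + strand, 141 to 136 bases before the start) are rises and were added after their values were seen.
Otud1: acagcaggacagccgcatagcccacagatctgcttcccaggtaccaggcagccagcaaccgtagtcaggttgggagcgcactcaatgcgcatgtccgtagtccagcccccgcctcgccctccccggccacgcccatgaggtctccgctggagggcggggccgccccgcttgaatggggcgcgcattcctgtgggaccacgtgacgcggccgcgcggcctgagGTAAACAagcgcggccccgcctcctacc
Scube3: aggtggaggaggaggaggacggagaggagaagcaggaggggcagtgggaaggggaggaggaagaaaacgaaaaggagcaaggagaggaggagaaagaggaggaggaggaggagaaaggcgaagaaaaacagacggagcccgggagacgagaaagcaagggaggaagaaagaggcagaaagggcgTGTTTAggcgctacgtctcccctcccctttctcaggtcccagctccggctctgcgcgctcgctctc
Col11a2: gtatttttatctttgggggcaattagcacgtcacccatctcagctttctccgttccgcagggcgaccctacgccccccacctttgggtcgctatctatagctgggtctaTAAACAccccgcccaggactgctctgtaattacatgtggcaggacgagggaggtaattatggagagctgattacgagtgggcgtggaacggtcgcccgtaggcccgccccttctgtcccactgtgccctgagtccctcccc

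Of the genes called in both fits, the 10 of highest level changed by less than the leading rises. Ckb, the creatine kinase of brain and glia, had the largest, from 12.32, 12.43, 11.37 and 11.67 to 13.97, 13.37, 13.54 and 13.64 (1.68, SE 0.15, adjusted p = 1.27e-05). Septin9, a cytoskeletal GTPase, rose by 0.66 and Sox10, which specifies neural crest, glia and melanocytes, by 0.73. In the other direction Syt4, a synaptotagmin of secretory vesicles, went from 13.98, 13.77, 13.84 and 13.68 to 12.49, 12.64, 12.77 and 12.61 (-1.19, SE 0.11, adjusted p = 1.25e-05). Marcks, a membrane-bound actin regulator, changed by -0.92 and Mitf, the melanocyte factor, by -1.09. Rapgef2, an exchange factor for Rap GTPases, changed by -0.71, the RNA-binding protein Celf2 by -0.65 and Rab38, which sorts enzymes to melanosomes, by -0.66. Rab38 had the tightest groups of these, 14.24 ± 0.07 and 13.58 ± 0.04 (SD, n = 4). Ttc3, a ubiquitin ligase, changed by -0.76 by its brightest probe set and was not called by the mean of its probe sets (-0.22, adjusted p = 0.167).

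Genes were next read by process, in 82 lists that hold 3307 of the tested genes. Counts of called members are set against 11.8% higher and 9.21% lower over all genes tested, and medians against -0.00. In bulk samples fewer cells of a type and less RNA per cell cannot be told apart. The lists share genes and differ in brightness, and no list was tested as a set. The filter used the mean over all 12 arrays, so some members dim with the empty vector were tested only through higher levels elsewhere. Of the 1292 called rises, 68 started below the limit with the empty vector, and the shares of tested members include such genes. Counts of 5 or fewer often moved by over 1.5 times when 1 array was left out, and no direction is read from them.

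**Figure D4:**
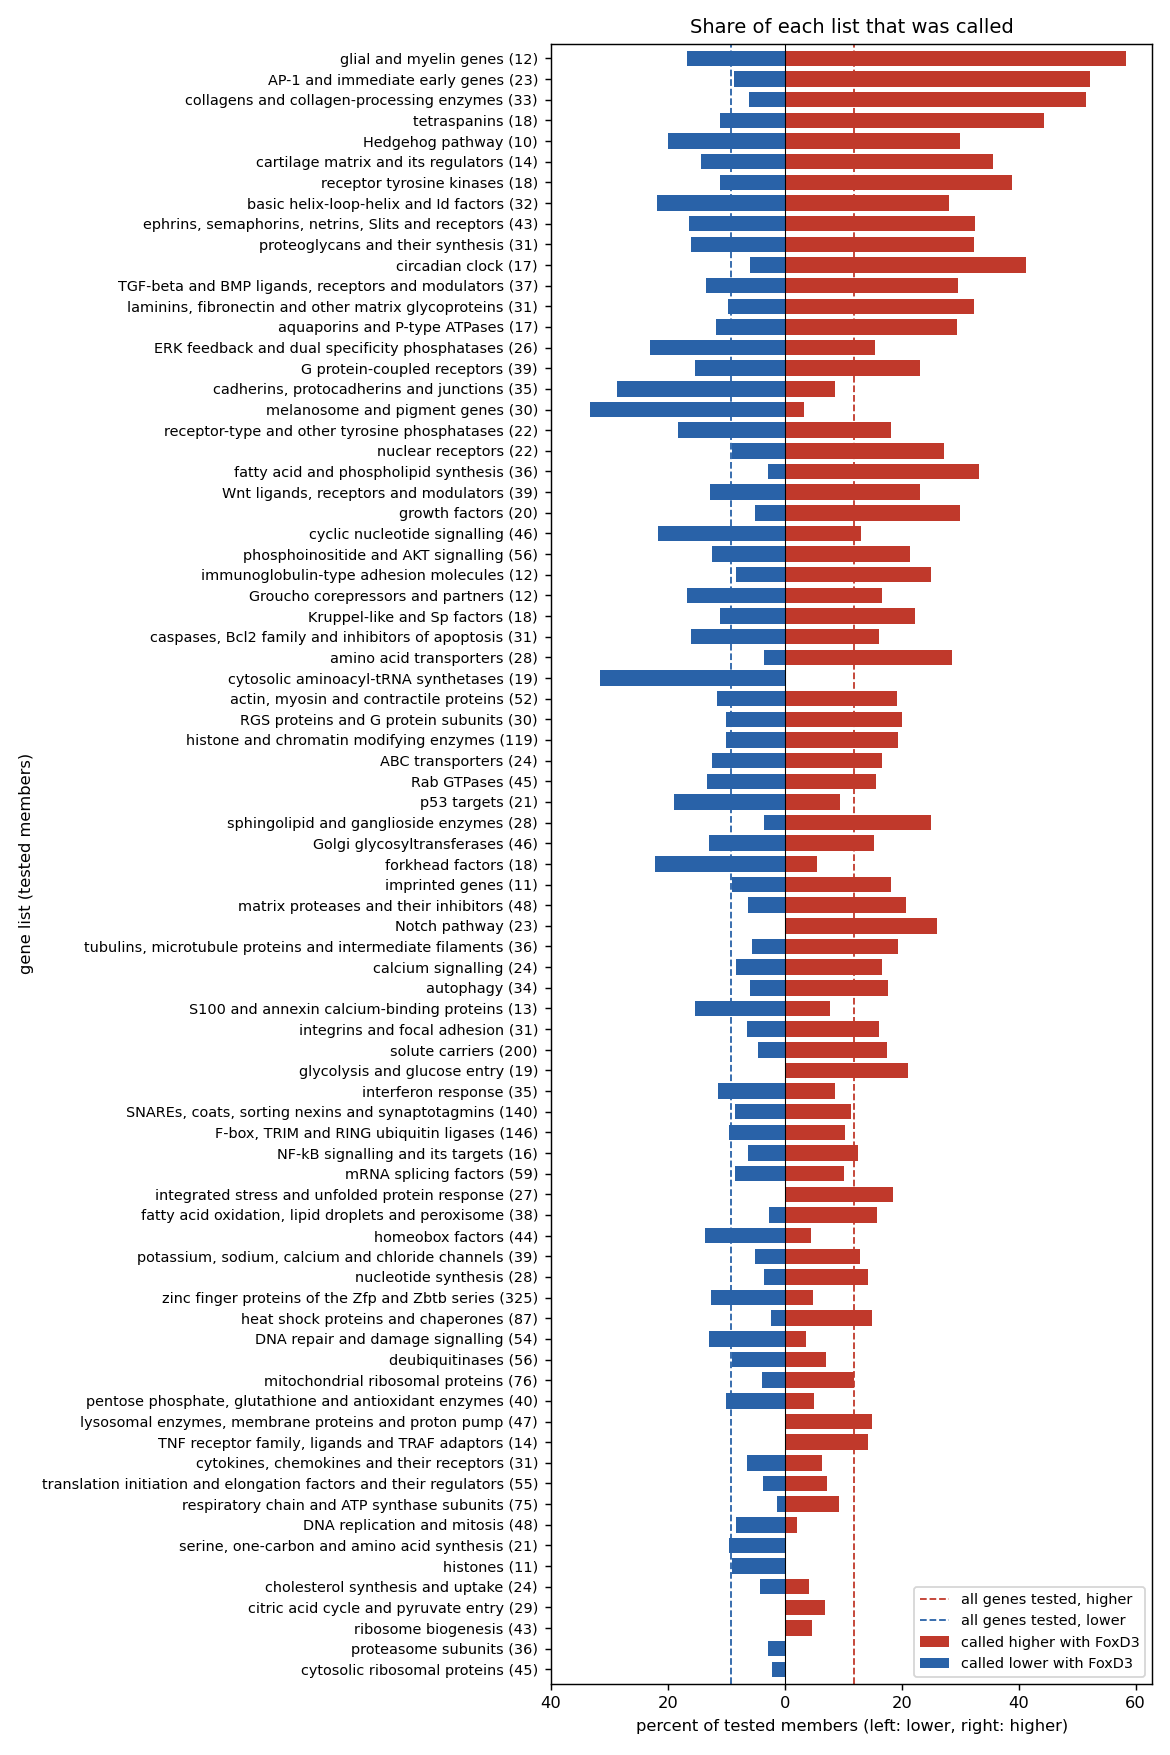
For the lists shown, each with at least 10 tested members (number in brackets), the bars give the percentage of those members called higher (right) or lower (left) with FoxD3, and the dashed lines give 11.8% and 9.21% for all genes tested. Glial, immediate early, collagen and tetraspanin genes stand at the top, and ribosomal and proteasome genes at the bottom. Members too dim to be tested are not counted.

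Among the tested collagen genes and the enzymes that process them, more were called higher than lower. Of 65 listed, 62 are on the array and 33 were tested; 17 rose and 2 fell (57.6% called), the median change was 0.56, and 8 rises held in both fits. Leaving out single arrays gave 15 to 19 rises. Beside Col2a1 and Col11a2 these include Col7a1, the anchoring fibril collagen, from 6.94, 6.75, 7.02 and 6.71 to 9.63, 8.64, 9.50 and 9.61 (2.49, SE 0.20, adjusted p = 4.83e-06), and Col1a1, from 4.47 to 5.80 before to 6.27 to 8.78 after (2.68, SE 0.38). The groups did not overlap for either gene. Fibroblast markers, of which Col1a1 is also a collagen of this list, moved in part with it. Of their 8, 4 were tested: Col1a1 and Pdgfra (1.21) rose, and Col1a2 (-0.72, adjusted p = 0.0870) and Fap (0.11, adjusted p = 0.850) were not called. The mean of the 8 went from 5.48 to 5.86 across the empty-vector arrays to 5.99 to 6.18 with FoxD3, while Col3a1, Dcn, Lum and Thy1 stayed below the limit. Their part in the result was not tested.

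Other matrix lists moved in both directions. Of 14 tested genes of cartilage matrix and its regulators 5 rose and 2 fell; Pth1r, the parathyroid hormone receptor of growth cartilage, rose by 2.26 (SE 0.28) from below the limit, and Sox6, a cartilage and crest factor, fell from 10.69 to 11.19 before to 9.93 to 10.05 after (-0.99, SE 0.11). Laminins, fibronectin and other glycoproteins had 10 rises and 3 falls of 31 tested (41.9%), with Thbs3, a thrombospondin, at 1.17 and the laminin chain Lama4 at -1.03. Proteoglycans and their synthesis had 10 rises and 5 falls of 31 (48.4%). Among its cell surface proteoglycans, Gpc1 rose by 1.11 (SE 0.10), Sdc4 by 1.04 (SE 0.10) and Sdc3 by 1.25 (SE 0.23). Of 48 matrix proteases and inhibitors 10 rose and 3 fell (27.1%). Here members of 1 family moved apart: Adamts4, an aggrecanase, went from 9.76, 9.68, 8.91 and 8.88 to 11.31, 10.98, 11.24 and 11.29 (1.90, SE 0.19), and Adamts1 from 12.01, 11.87, 12.45 and 12.44 to 10.93, 10.98, 11.13 and 11.07 (-1.17, SE 0.09). Neither gene's groups overlapped.

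Adhesion lists split by type. Cadherins, protocadherins and junction proteins were the only adhesion list with more falls than rises, 10 against 3 of 35 tested (37.1%; median -0.15; 7 to 10 falls without single arrays), although 2 of the falls held in both fits, Cdh19 and Ctnnd1, the p120 catenin (-0.69, SE 0.14). Tetraspanins had 8 rises and 2 falls of 18 (55.6%), with Cd9 at 0.80 (SE 0.10) and Tspan4 at 0.70 (SE 0.10). Of 31 integrins and focal adhesion proteins 5 rose and 2 fell (22.6%, near the 21.0% of all genes). Pxn, the adaptor paxillin, was the clearest, from 10.66 to 11.18 before to 11.66 to 12.42 after (1.03, SE 0.09, adjusted p = 7.62e-06). Among immunoglobulin-type molecules Cadm4, a glial adhesion protein, rose by 0.96 and Nrcam fell by 0.60 on the log2 scale.

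Among growth factors and their receptors, more members were called higher than lower. Of 66 growth factors listed 20 were tested, 6 rose and 1 fell (35.0%), and 5 of the rises held in both fits. Among these, Pdgfb and Ntf5 were below the limit with the empty vector (means 5.59 and 5.83) and passed the filter through other arrays. Besides Pgf and Pdgfb, Pdgfa rose from 8.85, 7.65, 8.89 and 8.98 to 10.99, 10.42, 10.45 and 10.61 (2.02, SE 0.19, adjusted p = 1.86e-05), and the neurotrophin Ntf5 by 1.76 (SE 0.33) from below the limit. Of 18 receptor tyrosine kinases 7 rose and 2 fell (50%). Pdgfrb, a receptor for the PDGF ligands, went from 7.17, 7.94, 6.99 and 7.81 to 9.03, 9.45, 9.30 and 9.47 (1.84, SE 0.24), and Axl, the receptor for Gas6, from 6.87, 6.93, 7.65 and 7.22 to 8.89, 8.13, 9.12 and 9.25 (1.68, SE 0.24). The groups of both receptors were fully separate.

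Guidance molecules and their receptors changed in both directions. Of 43 ephrins, semaphorins, netrins, Slits and receptors 14 rose and 7 fell (48.8%; median 0.42; the rises numbered 9 without any 1 of the arrays numbered 3 or 4). Beside Epha2, 2 of the 4 tested ephrins of the A class rose, and Efna4 (0.54) and Efna5 (-0.22) were not called. Efna3 went from 7.64, 6.21, 6.54 and 6.60 to 9.94, 8.54, 8.73 and 8.92 (2.29, SE 0.32), the array numbered 1 being highest in both groups, and Efna1 changed by 1.83 (SE 0.35) from below the limit, with 0.02 by its other, dimmer probe set. The netrin receptors moved apart, Unc5b by 2.08 (SE 0.34) and Unc5c by -1.26 (SE 0.11).

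The TGF-beta and BMP list had 11 rises and 5 falls of 37 tested (43.2%; 7 rises and 3 falls without the FoxD3 array numbered 4). Its largest changes beside Scube3 were rises of Fstl3, a follistatin-like inhibitor of activins (2.36, SE 0.45, from below the limit), and of Vasn, which binds TGF-beta (1.90, SE 0.24), and the fall of the decoy receptor Bambi. The Notch list had 6 rises and 0 falls of 23 (26.1%), with the receptor Notch1 from 8.12, 7.86, 7.68 and 7.63 to 10.40, 9.69, 9.51 and 9.66 (1.99, SE 0.15, adjusted p = 3.04e-06) and its target Hes1 from 6.69 to 7.63 before to 7.95 to 8.55 after (1.08, SE 0.20). Of 39 Wnt ligands, receptors and modulators 9 rose and 5 fell (35.9%), the receptor Fzd5 by 0.79. The Hedgehog list had 3 rises and 2 falls of 10, and Dhh, the ligand made by Schwann cells, rose by 1.69 (SE 0.33). Another, dimmer probe set of Dhh changed by 0.07.

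Signal transduction inside the cell changed in both directions at once. Cyclic nucleotide signalling had 6 rises and 10 falls of 46 (34.8%; 5 falls without the empty-vector or the FoxD3 array numbered 1, and 6 without the empty-vector array numbered 4 or the FoxD3 arrays numbered 3 or 4). Adcy6, an adenylyl cyclase, rose by 1.08 (SE 0.15) and Pkia, an inhibitor of protein kinase A, went from 10.15 to 10.36 before to 8.72 to 9.56 after (-1.06, SE 0.14). The exchange factors that link cyclic AMP or its receptors to Rap moved apart, Rapgef3 by 0.98 and Rapgef2 by -0.71. Of 56 phosphoinositide and AKT genes 12 rose and 7 fell (33.9%; 4 falls without the FoxD3 array numbered 4). The phospholipases Plcd3 and Plcd1 rose by 1.53 and 1.04, whereas Rictor, a subunit of the second mTOR complex, changed by -0.83 (SE 0.10) and the kinase Sgk3 by -0.97 (SE 0.11).

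Of 39 tested G protein-coupled receptors 9 rose and 6 fell (38.5%; 3 falls without the FoxD3 arrays numbered 1 or 4). Adgrg1, an adhesion receptor of melanoma and glial cells, went from 8.78, 9.45, 9.30 and 9.42 to 10.92, 10.47, 10.81 and 10.80 (1.51, SE 0.18), and the lysophosphatidic acid receptor Lpar2 rose by 1.74 (SE 0.27) from below the limit, to 7.33 to 7.45 on its 4 FoxD3 arrays. Calcium signalling genes had 4 rises and 2 falls of 24, with the release channel Itpr3 at 2.06 and the store-operated channel Orai2 at 1.14. ERK feedback genes and dual specificity phosphatases had 4 rises and 6 falls of 26 (38.5%). Ccnd1, the cyclin placed in that list as an ERK target, rose from 11.60, 10.58, 11.56 and 11.43 to 13.26, 12.77, 13.21 and 13.36 (1.86, SE 0.10, adjusted p = 2.83e-07), a 3.63-fold rise of an already abundant transcript.

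Of 48 tested genes of DNA replication and mitosis 1 rose and 4 fell (10.4%, against 21.0% of all genes), with a median change of -0.11, and none of the 5 was called without the replicate number. DNA repair and damage signalling had 2 rises and 7 falls of 54 (16.7%; 2 to 4 falls without the empty-vector array numbered 3 or the FoxD3 arrays numbered 1, 3 or 4). Its stress sensors parted: Gadd45b rose as above, and Gadd45a went from 9.13, 11.09, 9.81 and 9.66 to 8.16, 10.20, 8.77 and 8.73. The groups of Gadd45a overlapped because the arrays numbered 2 were high with both vectors, and the change of -0.96 (SE 0.13, adjusted p = 0.000209) was called only with the number in the model (adjusted p = 0.418 without it). The apoptosis list had 5 rises and 5 falls of 31 (32.3%, median change 0.05), and no direction is read from it. Its members called in both fits fell and are both known to protect cells from death: Bcl2, from 10.64, 10.08, 10.90 and 10.94 to 9.52, 9.26, 9.82 and 9.61 (-1.09, SE 0.11), and Birc2, from 9.85 to 10.14 before to 9.03 to 9.29 after (-0.80, SE 0.11).

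Families of transcription factors had called members in both directions. AP-1 and immediate early genes, which cells switch on quickly after a stimulus, had 12 rises and 2 falls of 23 tested (60.9%; median 0.76; 8 to 10 rises without single arrays), and 5 rises held in both fits. Maff, a small Maf factor, went from 7.06, 6.84, 7.86 and 7.74 to 9.92, 8.48, 9.95 and 10.01 (2.22, SE 0.24), the arrays numbered 2 being lowest in both groups. Nr4a1, an orphan nuclear receptor, went from 9.47 to 9.68 to 10.79 to 11.01 (1.34, SE 0.12, adjusted p = 9.22e-06). Ier5 rose by 1.47 (SE 0.15) and Zfp36, which speeds the decay of cytokine mRNAs, by 1.27 (SE 0.13). Basic helix-loop-helix and Id factors had 9 rises and 7 falls of 32 (50%), with Bhlhe40 at 1.15 and Tal1 at 1.17 on one side and Ahr and Mitf (-1.09, SE 0.11) on the other. Of 8 tested Sox factors Sox10 rose and 3 fell, among them Sox11, from 11.47, 10.72, 10.91 and 11.03 to 9.99, 9.78, 10.19 and 10.07 (-1.03, SE 0.12). Homeobox factors had 2 rises and 6 falls of 44 (18.2%), Pbx2 at 1.20 and Pax3, which acts upstream of Mitf, at -1.05.

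The 325 tested zinc finger genes named Zfp or Zbtb had more falls than rises, with 16 rises and 41 falls (17.5%) and a median change of -0.19. That count of falls was 22 to 25 without 1 of the arrays numbered 3 or 4 of either vector, and the rises numbered 10 without the FoxD3 arrays numbered 3 or 4. Of its members called in both fits 6 rose and 6 fell. The falls include Zfp608 and Zfp637, given above. Among the rises, besides Zfp469, Zbtb42 went from 9.04, 8.38, 7.82 and 8.04 to 9.82, 9.91, 10.26 and 10.21 (1.73, SE 0.25), and Zfp423, a partner of retinoic acid and BMP signals, rose by 1.35 (SE 0.17). Chromatin-modifying genes had 23 rises and 12 falls of 119 (29.4%; 13 rises and 5 falls without the FoxD3 array numbered 4, and 6 or 7 falls without the empty-vector arrays numbered 3 or 4 or the FoxD3 arrays numbered 1 or 3). Smarcd3, a subunit of the SWI/SNF remodelling complex, rose by 2.12 (SE 0.29), the Polycomb protein Cbx6 by 0.92 (SE 0.10) and the deacetylase Hdac5 by 0.80 (SE 0.14). The Groucho corepressors that FoxD3 is known to recruit moved in both directions: Tle1 and Tle4 changed by -0.50 each and Tle3 by 0.68, all 3 called only with the number in the model (adjusted p = 0.293, 0.568 and 0.347 without it). Tle1 and Tle4 were also not called without any 1 of several single arrays, and Tle3 was not called by the mean of its probe sets (adjusted p = 0.0841). Tle2 was too dim to be tested and stood at 4.18, 4.27, 5.69 and 5.37 with the empty vector and at 5.40, 6.56, 6.28 and 6.17 with FoxD3, a difference of 1.22. Tle6, a divergent relative, rose by 1.89 (SE 0.35).

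The circadian clock list had 7 rises and 1 fall of 17 tested (47.1%; median 0.34; 5 to 7 rises without single arrays), and 4 rises held in both fits. These were Dbp, an output factor of the clock, from 8.58, 8.51, 7.57 and 8.02 to 9.75, 9.61, 9.03 and 9.17 (1.22, SE 0.16), the repressor Bhlhe40, from 11.28, 12.11, 11.79 and 11.80 to 12.91, 13.23, 12.73 and 12.70 (1.15, SE 0.12), the period gene Per1 (1.01, SE 0.18) and the kinase Csnk1e (0.74, SE 0.12). The FoxD3 arrays lay above all empty-vector arrays for each of the 4.

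Called solute carriers were mainly higher. Of 200 tested solute carriers 35 rose and 9 fell (22%; median 0.11; 24 to 37 rises without single arrays), so the share called was near that of all genes while the rises outnumbered the falls. Slc26a6, an anion exchanger, rose by 1.34 (SE 0.25) while its relative Slc26a7 fell, and Slc8b1, the sodium and calcium exchanger of mitochondria, went from 9.15, 7.96, 7.66 and 7.97 to 9.78, 9.66, 9.56 and 9.42 (1.42, SE 0.19). Among ABC transporters (4 rises and 3 falls of 24) Abca1, which exports cholesterol, went from 9.02, 7.30, 9.66 and 9.42 to 11.04, 10.13, 10.69 and 10.63 (1.77, SE 0.24); the empty-vector array numbered 2 was the low one. Ion channels had 5 rises and 2 falls of 39 (17.9%), and none was called in both fits.

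Among lipid genes, the synthesis and sphingolipid lists had more rises than falls. Fatty acid and phospholipid synthesis had 12 rises and 1 fall of 36 (36.1%; median 0.28; 7 rises without the FoxD3 array numbered 3), though none was called without the replicate number. Sphingolipid and ganglioside enzymes had 7 rises and 1 fall of 28 (28.6%; 2 to 4 rises without any 1 array other than those numbered 2). In that list the kinase Sphk1, which makes the signalling lipid sphingosine phosphate, went from 8.46, 7.25, 8.13 and 8.21 to 10.16, 9.39, 10.34 and 10.41 (2.07, SE 0.15, adjusted p = 1.87e-06). Of 28 nucleotide synthesis genes 4 rose and 1 fell (17.9%), but 3 of the rises held in both fits: Adssl1, the muscle-type adenylosuccinate synthase, from 6.90, 7.64, 8.20 and 7.66 to 10.21, 9.91, 10.37 and 10.40 (2.62, SE 0.19, adjusted p = 2.24e-06), the adenylate kinase Ak1 (1.76, SE 0.19) and the purine salvage enzyme Aprt (0.80, SE 0.09). Cholesterol synthesis and uptake had 1 rise, Abca1, and 1 fall of 24 (8.33%).

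The central pathways of energy metabolism had no member called in both fits. The respiratory chain and ATP synthase had 7 rises and 1 fall of 75 (10.7%), none in both fits, and the number of rises ran from 0 without the empty-vector array numbered 3 to 13 without the empty-vector array numbered 2, with 1 to 4 without the empty-vector array numbered 4 or any FoxD3 array. The citric acid cycle had 2 rises and 0 falls of 29 (6.90%) and glycolysis 4 rises and 0 falls of 19 (21.1%, median 0.21), again none in both fits. Changes in these 3 lists stayed between -0.65 and 0.92.

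Ribosomal, ribosome biogenesis and proteasome genes had the lowest shares called of the lists with at least 10 tested members. Of 45 tested cytosolic ribosomal proteins 0 rose and 1 fell (2.22%), with all changes between -0.58 and 0.58. Of 43 ribosome biogenesis genes 2 rose and 0 fell (4.65%), and of 36 proteasome subunits 0 rose and 1 fell (2.78%). Mitochondrial ribosomal proteins had 9 rises and 3 falls of 76 (15.8%; 3 or 4 rises without any 1 of the arrays numbered 1 or 4 or the FoxD3 array numbered 3), with Mrpl43 at 0.58 in both fits. Among the enzymes that charge tRNAs, 6 of 19 cytosolic aminoacyl-tRNA synthetases fell and 0 rose (31.6%; 3 falls without the FoxD3 array numbered 1). The sizes were small, -0.42 for Lars and -0.39 for Iars, and none was called without the replicate number (adjusted p = 0.536 and 0.279 for these 2). Splicing factors had 6 rises and 5 falls of 59 (18.6%; 2 or 3 of each without most single arrays), none in both fits.

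Called chaperones were more often higher than lower, 13 against 2 of 87 tested (14.9% and 2.30%, against 11.8% and 9.21% of all genes). The share called was 17.2%, below the 21.0% of all genes, and the median change was 0.03. In both fits 3 members were called. Hspb1, which keeps unfolded proteins soluble and caps actin, went from 7.88, 8.19, 8.37 and 8.40 to 10.56, 10.17, 10.18 and 10.55, with no overlap (2.15, SE 0.17, adjusted p = 4.28e-06). Dnajb5 went from 7.02 to 7.50 before to 8.08 to 9.49 after (1.48, SE 0.22), while Dnajb4 went from 10.78, 10.45, 11.18 and 11.30 to 9.44, 10.07, 9.89 and 9.93 (-1.09, SE 0.14). The integrated stress and unfolded protein response had 5 rises and 0 falls of 27 (18.5%), none in both fits; Cebpb rose by 0.88 (SE 0.16), and its groups overlapped through the empty-vector array numbered 2 at 11.99 (adjusted p = 0.262 without the replicate number).

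Immune and inflammatory genes showed shares called at or below that of all genes. The interferon list had 3 rises and 4 falls of 35 (20%; 12 falls without the empty-vector array numbered 2), with Isg20, a nuclease, from 8.01, 8.20, 9.51 and 9.55 to 10.19, 10.00, 10.38 and 10.43 (1.43, SE 0.22). Cytokines, chemokines and receptors, of which 31 of 121 were tested, had 2 rises and 2 falls (12.9%), none in both fits. Lif, a cytokine of the interleukin-6 family, rose in 4 of 4 pairs, from 6.02, 4.76, 7.93 and 7.70 to 8.42, 7.19, 9.42 and 9.57 (2.05, SE 0.28, adjusted p = 0.000280), but its groups overlapped and it was not called without the number (adjusted p = 0.141). The NF-kB list had 2 rises and 1 fall of 16. Leukocyte markers had no called member, and the mean of the 7 on the array was 5.11 to 5.65 with the empty vector and 5.10 to 5.56 with FoxD3.

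Vesicle traffic genes moved both ways. SNAREs, coats, sorting nexins and synaptotagmins had 16 rises and 12 falls of 140 (20%; 10 rises without the FoxD3 array numbered 3, and 7 or 4 falls without the empty-vector or the FoxD3 array numbered 4). Syt9 fell with Syt4, from 10.77, 10.27, 10.24 and 10.19 to 9.15, 9.35, 9.35 and 9.20 (-1.10, SE 0.15), and Vps37b, of the sorting complex for endosomes, rose by 1.09 (SE 0.17). Rab GTPases had 7 rises and 6 falls of 45 (28.9%). Rab17, known from epithelial recycling endosomes, rose by 1.02 (SE 0.14) while the melanosome GTPase Rab32 went from 10.36, 10.27, 9.98 and 9.42 to 9.26, 9.30, 8.90 and 8.58 (-1.0, SE 0.17). Lysosomal genes had 7 rises and 0 falls of 47 (14.9%; 4 rises without the FoxD3 arrays numbered 1 or 3), none in both fits. The cytoskeletal list of actin and myosin genes had 10 rises and 6 falls of 52 (30.8%; 6 rises without the empty-vector array numbered 3 or the FoxD3 array numbered 1, and 3 falls without 1 of the arrays numbered 1 or the FoxD3 arrays numbered 3 or 4). Pdlim5, which anchors kinases to actin, changed by -1.07 (SE 0.13), and the myosins Myo6 and Myo7a by -0.77 and 0.48. Prph, an intermediate filament of peripheral neurons, rose by 2.03 (SE 0.36) from below the limit. Its other, dimmer probe sets changed by 0.42, -0.43 and -0.68.

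Called pigment genes were mainly lower and called glial genes mainly higher. Of 30 tested melanosome and pigment genes 1 rose and 10 fell (36.7%; 9 or 10 falls without single arrays), but 3 of the falls held in both fits. Tyr, the first enzyme of melanin synthesis, went from 13.31, 14.15, 13.49 and 13.47 to 12.18, 13.08, 13.10 and 12.95 (-0.78, SE 0.11, adjusted p = 0.000406), and its adjusted p was 0.0998 without the replicate number. Tyrp1, a later enzyme of melanin synthesis, one of the most abundant pigment transcripts, was named after its values were seen and went from 15.39, 15.29, 15.39 and 15.36 to 15.14, 15.07, 15.09 and 15.02 (-0.28, SE 0.05, adjusted p = 0.00203, and 0.0994 without the replicate number). The abundant transcripts Dct, Pmel and Mlana were not called: Dct changed by -0.07 (limma adjusted p = 0.254), Pmel by -0.12 (0.154) and Mlana by -0.13 (0.0747). Their empty-vector means were 15.51, 14.92 and 14.90, near the highest mean level of any gene tested (15.68). Whether signals this bright still follow the amount of RNA was not tested. Of 25 glial and myelin genes listed, 22 are on the array and 12 were tested. Of the tested ones 7 rose and 2 fell (75%), and 6 rises and 1 fall held in both fits. Ngfr, among these rises, lay below the limit with the empty vector (mean 5.27) and passed the filter through other arrays. Phlda2, an imprinted gene of growth control, stood outside all of these processes, from 5.10, 7.47, 6.11 and 6.15 to 8.32, 8.85, 8.06 and 7.99 (2.10, SE 0.30, adjusted p = 0.000337).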

How the data were processed

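RNA of 12 samples was measured on Affymetrix mouse genome arrays, and 8 of them are compared. The intensity values deposited by the authors are linear MAS5 signals per the submitters' processing notes (version not given in the sources used here), and each array's trimmed mean lies between 500.003 and 500.004. Without the 64 control probe sets, log2(intensity + 16) was quantile normalized over the 12 arrays in limma. Preparation and summaries used pandas 2.3.3 and numpy 2.4.6. The platform table gave 1 symbol to 34945 of 45101 probe sets, several to 932 and none to the rest, which were not used. Each of 18193 genes took its probe set of highest mean, the dimmest 40% of genes (log2 level under 5.98) were left out, and 10916 were tested. limma 3.58.1 (R 4.3.3) with a trend was fitted over all 12 arrays with the replicate number of the titles as a block, and p-values were adjusted by Benjamini-Hochberg. The numbers pair the samples as far as the values show: deviations of arrays with the same number correlated by 0.37 to 0.67 (12 pairs), those numbered 3 and 4 by 0.37 to 0.54, and others by -0.51 to 0.12. The scripts were tested on simulated data. The genes named are the 25 largest rises and falls called in both fits with 4 of 4 pairs agreeing in sign and groups apart, the 10 genes of highest level called in both fits, up to 4 members of each list by size of change among those called in both fits (up to 2 called with the block alone where there were none), and 12 genes of pigment cells and corepressors. The members and lists were chosen with earlier results of these data known. Of the listed symbols, 97 were not analysed here. The results of 1 list are not reported here. In all, 20 alternatives were run. No read or cell number stands behind an array value, so the number of arrays limits the precision.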

Additional observations from a re-analysis of the deposited data

Results flagged for a closer look

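Among the genes named, 24 of 310 sets of 4 arrays held 1 array far from the other 3 for its group (beyond the critical value of Dixon's test). The test's rate of about 1 in 20 is for unrelated sets. These sets share 8 arrays and their genes were chosen partly by their values, so 24 is not compared with that rate. No explanation was tested. The empty-vector array numbered 2 was the low one for Ccnd1 (10.58), Gadd45b (6.46), Otud1 (9.93), Pdgfa (7.65), Prickle1 (12.13), Rictor (11.55) and Zfp423 (7.29), and the high one for Lars (12.94). The FoxD3 array numbered 2 was the low one for Ahr (8.79), Col7a1 (8.64), Csnk1e (11.35), Maff (8.48), Mrpl43 (11.49) and Vps37b (9.47). The empty-vector array numbered 1 was low for Cd9 (9.70), Iars (12.20), Plcd3 (5.96), Smarcd3 (5.11) and Syne1 (10.18) and high for Syt9 (10.77). The FoxD3 array numbered 1 was high for Cbx6 (11.74) and low for Pdlim5 (9.57) and Tyr (12.18). The FoxD3 array numbered 4 was high for the dim mouse Foxd3 probe set (5.26).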

How the results depend on the processing

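Every alternative kept more rises than falls, and the number of calls moved most with the treatment of the replicate number. Without the replicate block 438 genes were called, 316 higher and 122 lower, and 72.1% of the calls were higher against 56.2% with it. Array quality weights gave 4017 calls, 2087 higher and 1930 lower, and the mean of all probe sets of a gene gave 640 lower. Leaving out 1 array gave 1387 to 2357 calls, with 821 to 1297 higher and 566 to 1060 lower. The lowest of these came without the FoxD3 array numbered 4 (1387), and 1507 were called without the FoxD3 array numbered 3. Falls numbered 634 without the empty-vector array numbered 4, 645 without the FoxD3 array numbered 1 and 642 without the FoxD3 array numbered 3. Other filters, pseudocounts, the deposited scale without quantile normalization, the 8 arrays alone, the fit without the arrays numbered 1 and the one with numbers 3 and 4 as 1 block level stayed within 1.5 times. Of 219 genes chosen by the naming rule, 47 lost their call without the block. With the mean of all probe sets 32 of 215 lost it with the same sign, and Pola1 (0.04) and Ulk1 (-0.02) lost it and turned sign. Leaving out 1 array cost 6 to 15 of them their call. The 5.98 is the cut of the filter on dim genes and not a detection limit. For a gene below it with 1 vector, the size of the change depends on the pseudocount.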

Other observations

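Several genes outside the lists changed by as much as their leading members. They were picked after their values were seen and describe these arrays only. Dok7, an adaptor of the neuromuscular receptor kinase MuSK, stood at 7.82, 7.32, 7.52 and 7.47 with the empty vector and at 10.85, 9.62, 9.89 and 10.31 with FoxD3 (2.63, SE 0.18, limma adjusted p = 1.49e-06). Glis2, a zinc finger factor related to the Gli proteins, went from 6.73, 6.60, 7.0 and 6.65 to 9.37, 8.47, 9.07 and 8.99 (2.23, SE 0.21). The feedback inhibitors Socs3 and Pmepa1 rose: the former, which damps cytokine receptors, from 7.24, 7.30, 7.34 and 6.33 to 10.04, 8.85, 9.02 and 9.28 (2.25, SE 0.34), and the latter, which damps TGF-beta signals, from 8.40, 6.41, 8.0 and 7.96 to 10.23, 9.19, 10.00 and 10.11 (2.19, SE 0.24). In the other direction Tiparp, a target gene of Ahr, went from 12.10, 11.29, 12.67 and 12.64 to 11.21, 10.97, 11.19 and 11.02 (-1.08, SE 0.16), and its arrays numbered 2 differed least. Mef2c, a factor of muscle and neural crest, went from 9.81, 10.03, 10.11 and 10.19 to 8.95, 9.19, 9.36 and 9.0 (-0.91, SE 0.13). Cavin2, a coat protein of caveolae, went from 11.32, 11.33, 11.02 and 11.05 to 10.11, 10.51, 9.98 and 9.98 (-1.04, SE 0.14). The groups did not overlap for any of these 7 genes, and all 7 were called in both fits.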
